A study of Mus musculus with 25 samples.

Results

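The cholesterol synthesis and sterol control genes are a list of 28 mouse genes, named by symbol and by role, with earlier results of these data known, and followed here through all 6 groups of a CD4 T cell RNA-seq study. The list holds 18 enzymes of the pathway that builds cholesterol, 5 genes that control the SREBP transcription factors, and 5 genes of sterol transport and of the liver X receptor (LXR). All 28 were found among the 46078 genes of the count table, and all 28 had enough counts to be tested. The cells were CD4 T cells sorted from mice of the C57BL/6NTac strain. The genotypes were miR-150 knock-out (ko), miR-150 knock-in (ki) and wild type (wt), and cells of each were taken 7 days after induction of EAE (D7) and from naive mice. EAE, experimental autoimmune encephalomyelitis, is an immunization model of multiple sclerosis in which primed CD4 T cells attack the nervous system. There were 4 libraries each in ko D7, ki D7, ko naive, ki naive and wt naive, and 5 in wt D7, 25 in all. How the knock-out and knock-in alleles were built, the age and number of the mice, and whether mice were pooled are not given in the sources used here.

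Cells build cholesterol from acetyl-CoA through mevalonate, farnesyl diphosphate, squalene and lanosterol. When sterols in the endoplasmic reticulum run low, SCAP carries SREBP to the Golgi, where it is cut free to switch on nearly all of these enzymes. INSIG proteins hold SCAP back when sterols are plentiful. Oxysterols bind LXR, which switches on the cholesterol exporters ABCA1 and ABCG1 and the LDL receptor degrader MYLIP. In T cells, activation is known to turn synthesis up and LXR-driven export down. The stage comparisons therefore ask how this pathway stood in cells from D7 mice, and the genotype comparisons ask whether it depended on miR-150, a microRNA abundant in resting lymphocytes.

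Depth varied, from 6024043 to 49489134 total counts (median 16312725). Levels are given as CPM, counts scaled to library size with TMM factors. The Mir150 gene was listed at 0 in 8 of 8 knock-out libraries. It averaged 15.9 ± 9.22 CPM in ki D7 and 16.3 ± 5.57 CPM in wt D7 libraries (SD, n = 4 and 5), and 14.3 ± 1.42 CPM in ki naive and 20.2 ± 4.86 CPM in wt naive libraries (SD, n = 4 each). This gene was not called between ki and wt at either stage. Summed CD4 T cell markers (Cd4, Cd3e, Lck and 5 others) were similar over the groups, with means of 2417 to 2457 CPM. Of these 8 genes, 1 was called lower at D7 in the average over genotypes, where 5.06% of all genes were. ko D7 replicate 3 was the deepest library and had the lowest voom quality weight, 0.144. The labels do not say which mouse each library came from, and the p-values rest on the spread among libraries, which may be technical.

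Averaged over the genotypes, transcripts of the cholesterol exporters Abca1 and Abcg1 fell at D7, and Srebf2, which encodes the SREBP that drives cholesterol synthesis, rose slightly. The Srebf2 rise was largest in ki cells. None of the 18 synthesis enzymes passed the test in any of the 10 comparisons. Thus 3 of the 28 genes were called in D7 against naive averaged over the 3 genotypes (edgeR quasi-likelihood test, Benjamini-Hochberg adjusted p under 0.05), while 11.2% of all 14703 genes tested were. One direction at a time, 1 of 28 was called higher, against 6.16% of all genes, and 2 of 28 lower, against 5.06%. The share of the list called was near that of all genes, so the result concerns these 3 genes and not the list. In bulk RNA, fewer cells of a type and less RNA per cell cannot be told apart.

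**Figure D1:**
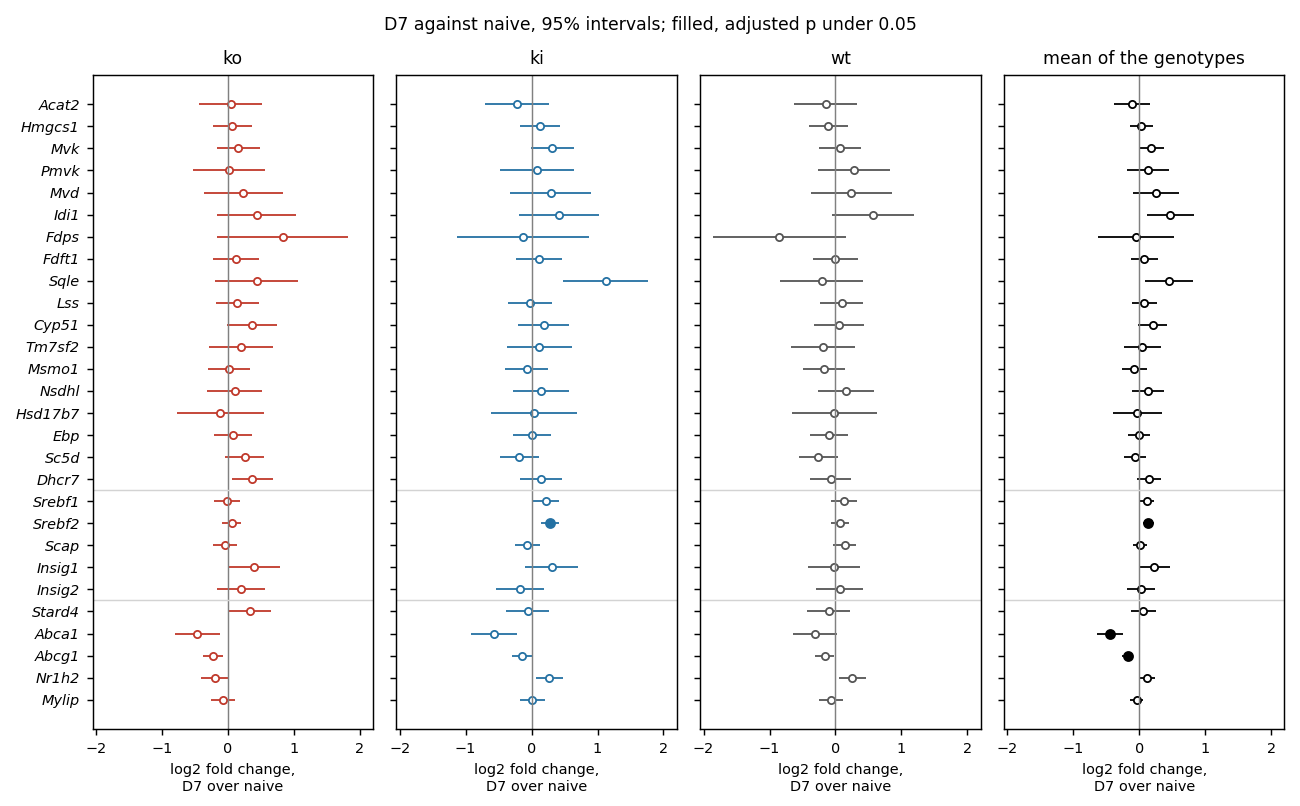
Log2 fold change of each of the 28 genes, D7 over naive, with its 95% interval, in ko, ki and wt cells and averaged over the genotypes; filled points passed an adjusted p of 0.05. Filled points stand at Srebf2 in ki and at Srebf2, Abca1 and Abcg1 in the average, and the enzymes, in the upper block, have open points throughout.

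Abca1 (ENSMUSG00000015243, chromosome 4, 53030787 to 53159895, minus strand, GRCm38) encodes the transporter that loads cholesterol onto lipid-poor apolipoprotein. It had 59.1, 44.4, 39.8 and 49.3 CPM in ko D7 libraries, against 78.3, 67.2, 59.9 and 59.4 CPM in ko naive libraries. In ki D7 libraries it had 49.3, 58.0, 52.0 and 52.0 CPM, against 54.8, 68.1, 105 and 86.4 CPM in ki naive libraries. Wild-type cells gave 62.2, 53.3, 45.2, 84.4 and 66.5 CPM at D7, against 89.0, 78.0, 80.6 and 62.5 CPM in naive cells. The ko ranges did not overlap, by a margin of less than 1 CPM, and the ki and wt ranges did. Averaged over the genotypes, Abca1 fell to 0.733 of its naive level (log2 fold change -0.45, SE 0.096, edgeR adjusted p = 0.00273). Its log2 fold changes were -0.46 in ko, -0.57 in ki and -0.31 in wt, and in no genotype alone did it pass the test (edgeR adjusted p = 0.223, 0.0755 and 0.385). The ki change was called by limma voom (adjusted p = 0.038) and by edgeR without ki naive replicate 1 (adjusted p = 0.0297). With no filter on low counts edgeR called it in ki and in ko (adjusted p = 5.95e-08 and 8.68e-05).

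Abcg1 (ENSMUSG00000024030, chromosome 17, 31057675 to 31117988, plus strand) encodes the transporter that passes cholesterol to mature HDL particles. It had 114, 109.9, 105 and 97.4 CPM in ko D7 libraries, against 137, 129, 121 and 113 CPM in ko naive libraries. In ki D7 libraries it had 101, 126, 112 and 118 CPM, against 121, 121, 131 and 131 CPM in ki naive libraries. Wild-type cells gave 100.5, 104, 91.5, 113 and 110.1 CPM at D7, against 115, 118, 114 and 119 CPM in naive cells. All 5 wt D7 libraries lay below all 4 wt naive ones, and the ko and ki ranges overlapped. Averaged over the genotypes it fell to 0.884 of its naive level (log2 fold change -0.18, SE 0.042, edgeR adjusted p = 0.00577). The gene overlaps an annotated rRNA fragment, Gm25447, on the same strand, which had 959 counts in all over the 25 libraries.

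**Figure D2:**
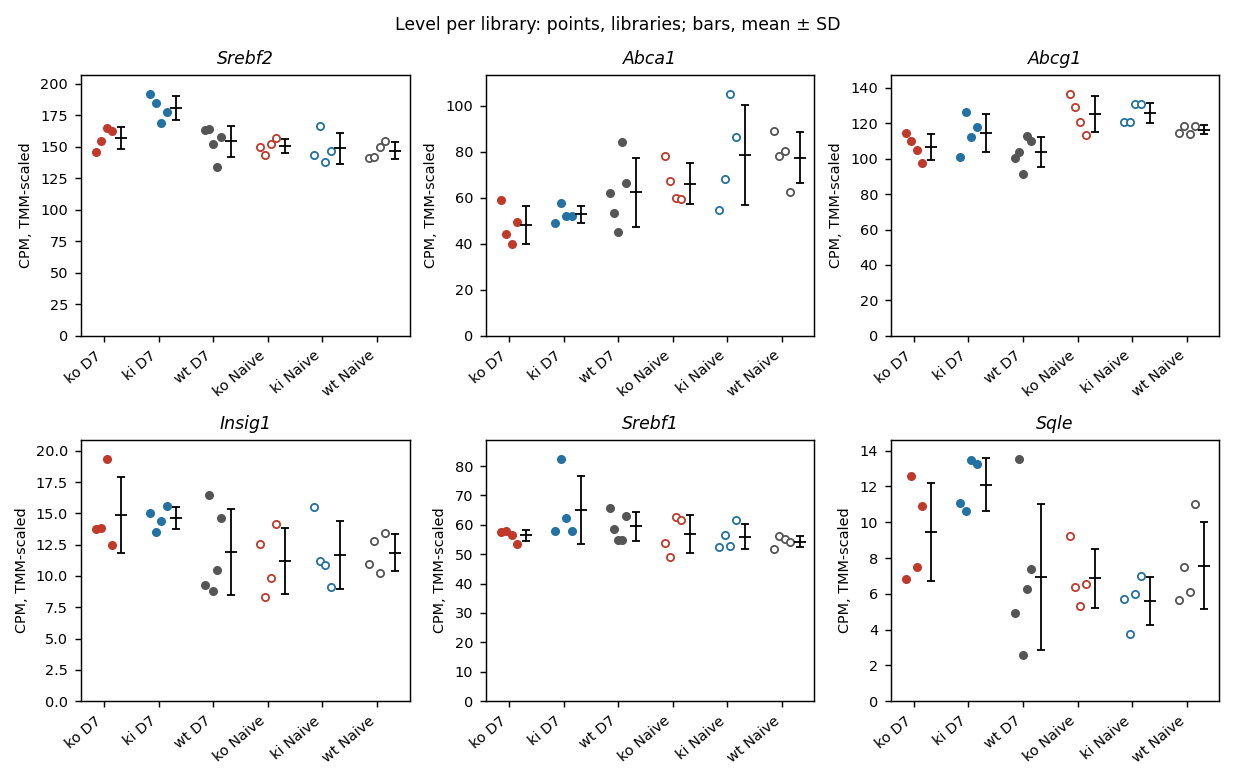
Level of 6 genes in each of the 25 libraries, in TMM-scaled CPM (y axis, from 0), by group (x axis); points are libraries, filled at D7 and open in naive cells, and bars are mean ± SD. The Abca1 and Abcg1 points sit lower at D7, Srebf2 is highest in ki D7 at 169 to 192 CPM, and Sqle spans 2.59 to 13.5 CPM in wt D7 alone.

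The other LXR-linked genes were not called. Mylip, whose product marks the LDL receptor for destruction, differed by -0.04 on the log2 scale averaged over the genotypes, with a 95% interval of -0.15 to 0.06. Its group means were 86.9 ± 1.40 CPM in ko D7, 97.7 ± 5.83 in ki D7 and 90.1 ± 12.9 in wt D7 (SD, n = 4, 4 and 5), against 91.3 ± 6.09, 96.9 ± 9.15 and 94.7 ± 8.83 CPM in ko, ki and wt naive libraries (SD, n = 4 each). Its interval in the average did not reach the value fitted for either exporter, and the difference from them was not tested. Stard4, which carries sterols between membranes, had a log2 fold change of 0.06 with an interval of -0.13 to 0.25 in the same comparison.

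Nr1h2, which encodes LXR-beta, had 59.8, 43.5, 63.1 and 49.9 CPM in ko D7 libraries, against 68.6, 59.6, 58.3 and 62.1 CPM in ko naive libraries. Knock-in libraries had 69.3, 78.4, 66.7 and 62.8 CPM at D7, against 52.8, 59.4, 58.0 and 60.0 CPM in ki naive. Wild-type libraries had 71.8, 61.0, 77.4, 58.1 and 63.8 CPM at D7, against 50.7, 62.8, 55.9 and 53.9 CPM in wt naive. The ki ranges did not overlap, and the ko and wt ranges did. The log2 fold change was negative in ko, -0.20, and positive in ki, 0.27, and in wt, 0.25, and the difference between ko and wt was -0.45 (SE 0.143). That difference had an unadjusted p of 0.00417 and an edgeR adjusted p of 0.505, so it was not called.

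The Srebf2 locus also holds miR-33, a microRNA known to act on Abca1 and Abcg1 mRNA in mice. Its sequence is shown because these are the genes that were called, and it was chosen after their values were seen. The Mir33 hairpin (chr15:82198122-82198190, plus strand) lies in an intron spanned by 3 annotated Srebf2 transcripts and overlaps 0 of their exons. The mature sequence from RefSeq (GRCm38.p6), with seed bases 2 to 8 in capitals, and the stretches of the longest annotated 3′ UTRs of both exporters that match that seed, with the match in capitals, are as follows.
miR-33-5p: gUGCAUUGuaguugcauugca
Abca1, chr4:53033801-53033821, minus strand: tactgacactattCAATGCAa
Abca1, chr4:53033796-53033816, minus strand: acactattcaatgCAATGCAc
Abca1, chr4:53033786-53033806, minus strand: atgcaatgcacttCAATGCAa
Abcg1, chr17:31114989-31115009, plus strand: gactaacgcaacgCAATGCAa
Abcg1, chr17:31114999-31115019, plus strand: acgcaatgcaacgCAATGCAg

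The 3′ UTR of Abca1 held 3 matches in 3156 bases and that of Abcg1 held 2 in 3703 bases. The word searched was the reverse complement of the seed, CAATGCA, on the transcript strand, and matches could overlap. Of 11138 tested protein-coding genes with an annotated 3′ UTR, 7.25% held at least 1 match and 0.682% held at least 2. Among the 28 sterol genes, 3 held a match: Abca1, Abcg1 and, with 1 in 900 bases, Nsdhl. A match is a description of the sequence and was not tied to any change in level. Reads over the Mir33 hairpin were few, at 0.511 ± 0.727 CPM in ko D7, 0.716 ± 0.101 in ki D7 and 0.894 ± 0.201 in wt D7 (SD, n = 4, 4 and 5), against 0.477 ± 0.373, 0.519 ± 0.138 and 0.729 ± 0.695 CPM in ko, ki and wt naive libraries (SD, n = 4 each). Reads of the hairpin and of unspliced Srebf2 RNA cannot be told apart here, and neither measures mature miR-33.

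Srebf2 (ENSMUSG00000022463, chromosome 15, 82147181 to 82205379, plus strand) was the most abundant of the control genes. It had 146, 155, 164 and 162 CPM in ko D7 libraries, against 149, 144, 152 and 157 CPM in ko naive libraries. In ki D7 libraries it had 192, 185, 169 and 178 CPM, against 144, 167, 138 and 146 CPM in ki naive libraries. Wild-type cells gave 163, 164, 152, 134 and 158 CPM at D7, against 141, 142, 150.1 and 155 CPM in naive cells. All 4 ki D7 libraries lay above all 4 ki naive ones, and the ranges overlapped in ko and wt. In ki cells Srebf2 rose by 0.28 on the log2 scale (SE 0.067, 1.22-fold, edgeR adjusted p = 0.0226), so 1 of the 28 genes was called there, where 2.02% of all genes were. Averaged over the genotypes the rise was 0.14 (SE 0.038, 1.10-fold, edgeR adjusted p = 0.0195). Mean levels at D7 and in naive cells were 157 and 151 CPM in ko, 181 and 149 in ki, and 154 and 147 in wt. The averaged rise thus came more from ki than from ko or wt. The stage change of Srebf2 was 0.22 larger in ki than in wt on the log2 scale (SE 0.093), with an unadjusted p of 0.0283 and an edgeR adjusted p of 0.999. The ki call was lost (edgeR adjusted p 0.0534 to 0.116) without ki D7 replicate 1 or 2, or without ki naive replicate 1, 3 or 4, and with a block for every 4 neighbouring library numbers (0.059). The averaged call was lost with no filter on low counts (0.0521) and with that block (0.0557).

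The other control genes were not called. Srebf1, which encodes the SREBP isoforms of fatty acid synthesis and, in part, of sterol synthesis, had 57.6, 57.9, 56.6 and 53.5 CPM in ko D7, against 53.9, 49.0, 62.7 and 61.6 CPM in ko naive. The ki D7 values were 58.0, 82.4, 62.2 and 57.8 CPM, against 52.6, 56.5, 52.7 and 61.6 CPM in ki naive. The wt D7 values were 65.7, 58.7, 54.8, 55.0 and 63.1 CPM, against 51.6, 56.1, 55.2 and 54.1 CPM in wt naive. Its ranges overlapped in every genotype, and its averaged log2 fold change was 0.11 (SE 0.055, edgeR adjusted p = 0.196). Rai1, a gene on the opposite strand with 81001 counts in all, overlaps Srebf1, and the strand setting of the counting is not given, so the Srebf1 level is uncertain.

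Insig1, itself an SREBP target and the quick arm of the brake on SCAP, had 13.8, 13.8, 19.3 and 12.5 CPM in ko D7, against 12.5, 8.29, 9.80 and 14.2 CPM in ko naive. Among ki D7 libraries the levels were 15.02, 13.5, 14.4 and 15.6 CPM, against 15.5, 11.2, 10.9 and 9.11 CPM in ki naive. Among wt D7 libraries the levels were 9.25, 16.4, 8.84, 10.5 and 14.6 CPM, against 10.99, 12.8, 10.2 and 13.4 CPM in wt naive. The ranges overlapped in every genotype, and wt D7 spread widest, with replicates 2 and 5 high. Averaged over the genotypes the log2 fold change was 0.23 (SE 0.111, edgeR adjusted p = 0.204).

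Insig2, the SREBP-independent brake, had 9.36, 10.1, 11.9 and 10.4 CPM in ko D7, against 9.61, 9.28, 8.04 and 9.51 CPM in ko naive. For ki cells the D7 levels were 6.42, 10.6, 10.2 and 8.21 CPM, against 10.2, 9.74, 11.8 and 7.74 CPM in ki naive. For wt cells the D7 levels were 7.84, 13.2, 8.94, 13.6 and 10.5 CPM, against 9.58, 12.2, 8.59 and 10.7 CPM in wt naive. Groups overlapped throughout, and the averaged log2 fold change was 0.03, with an interval of -0.18 to 0.24. Scap, the escort itself, had an averaged log2 fold change of 0.01 with an interval of -0.09 to 0.11. Its group means ran from 51.0 to 56.6 CPM.

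None of the 18 synthesis enzymes was called at D7 in any genotype, although most had positive fold changes in ko and ki cells. In ko cells 17 of 18 log2 fold changes, D7 over naive, were positive, with a median of 0.15. In ki cells 13 of 18 were positive (median 0.11), and in wt cells 7 of 18 (median -0.04). Over all genes tested 49.5%, 51.6% and 49.7% were positive in ko, ki and wt, with medians within 0.01 of 0. The enzymes are not independent of each other, so these counts are a description. Across the 28 genes, 0 were called in ko, where 0.408% of all genes were, and 0 in wt, where 2.14% were. At an unadjusted p under 0.05, 5 of the 28 passed in ko, 5 in ki, 2 in wt and 7 in the average, where 12.8%, 15.1%, 15.1% and 24.4% of all genes did. The 7 of 28 in the average were thus near the share of all genes.

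The mean log2(CPM + 0.5) of the enzymes was 3.09, 3.29, 3.16 and 3.28 in ko D7 libraries, against 3.02, 2.94, 3.01 and 3.10 in ko naive libraries. It was 3.24, 3.21, 3.31 and 3.34 in ki D7 libraries, against 3.30, 3.21, 3.00015 and 3.05 in ki naive libraries. In wt D7 it was 2.98, 3.37, 2.83, 2.99 and 3.28, against 3.10, 3.11, 2.96 and 3.30 in wt naive. The ko groups overlapped only at their edges, ki D7 was tight while ki naive spread, and wt D7 held both the lowest and the highest library of all 25. In summed CPM the enzymes averaged 189 ± 18.8 in ko D7, 198 ± 9.44 in ki D7 and 176 ± 25.9 in wt D7 (SD, n = 4, 4 and 5), against 165 ± 8.16, 183 ± 18.4 and 179 ± 15.8 CPM in ko, ki and wt naive libraries (SD, n = 4 each).

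**Figure D3:**
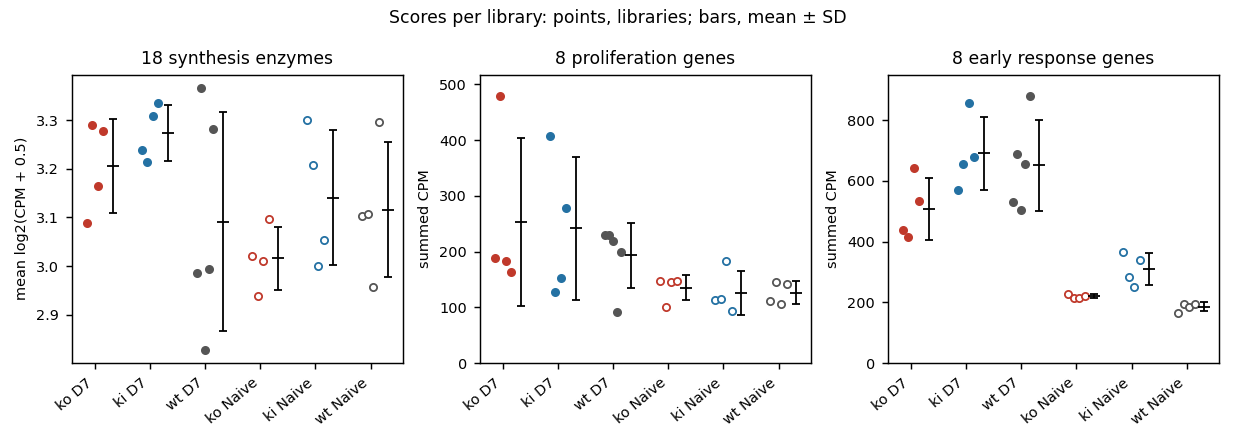
Mean log2(CPM + 0.5) of the 18 enzymes, and summed CPM of 8 proliferation genes and of 8 early response genes, in each library by group; points are libraries, filled at D7, and bars are mean ± SD. The enzyme score overlaps between D7 and naive in every genotype and is widest in wt D7, at 2.83 to 3.37, while early response sums at D7, from 416 CPM up, lie above all naive sums, up to 365 CPM.

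The entry enzymes and the mevalonate steps had averaged log2 fold changes between -0.11 and 0.25. Hmgcs1, which makes the HMG-CoA that is then reduced to mevalonate, averaged 20.2 ± 4.11 CPM in ko D7, 23.2 ± 2.48 in ki D7 and 19.3 ± 4.17 in wt D7 (SD, n = 4, 4 and 5), against 19.1 ± 1.69, 21.3 ± 1.76 and 20.6 ± 3.04 CPM in ko, ki and wt naive libraries (SD, n = 4 each). Its averaged log2 fold change was 0.03 with an interval of -0.14 to 0.20. Acat2, which joins acetyl-CoA units, had a value of -0.11, and the kinases and decarboxylase that follow mevalonate, Mvk, Pmvk and Mvd, had values of 0.18, 0.12 and 0.25 in the same comparison. None of these passed the test. Acat2 has stretches near-identical to Acat3 and Tcp1 (413 and 89637 counts in all), which makes its level uncertain.

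The isoprenoid steps included Fdps, the lowest of the 28 genes. Idi1, which isomerizes the isoprene unit, had 4.04, 6.12, 8.10 and 5.40 CPM in ko D7, against 3.82, 4.89, 4.96 and 3.96 CPM in ko naive. ki D7 libraries gave 7.13, 6.31, 5.01 and 4.58 CPM, against 5.43, 5.27, 3.38 and 3.04 CPM in ki naive. wt D7 libraries gave 4.65, 7.22, 2.66, 5.27 and 4.63 CPM, against 3.45, 2.69, 1.53 and 5.16 CPM in wt naive. Groups overlapped in every genotype, and the averaged log2 fold change was 0.47 (SE 0.171, edgeR adjusted p = 0.0747). It passed in DESeq2, with a block for every 4 neighbouring library numbers, and without wt naive replicate 4. Without wt D7 replicate 3 both Idi1 and Sqle passed the test in the average, which raised the count of the 28 genes called to 5. Idi1 has 3 near-identical genes in the annotation, so part of its reads may be assigned elsewhere.

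Fdps, which makes farnesyl diphosphate for sterols and for protein prenylation, had 4.26, 1.04, 2.85 and 1.25 CPM in ko D7, against 0.498, 2.76, 1.01 and 1.28 CPM in ko naive. Knock-in libraries had 1.56, 1.15, 2.48 and 1.73 CPM at D7, against 2.42, 1.68, 1.78 and 1.67 CPM in ki naive. Wild-type libraries had 0.888, 1.38, 0.552, 0.648 and 2.52 CPM at D7, against 2.35, 2.42, 1.65 and 2.06 CPM in wt naive. Its libraries scattered within every group, and all ranges overlapped. The stage change differed by 1.69 on the log2 scale between ko and wt (SE 0.691), with an edgeR adjusted p of 0.557. Fdps has 5 near-identical genes, mostly processed pseudogenes, which makes its level uncertain.

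Sqle, squalene epoxidase, a rate-limiting oxygen-dependent step, had the largest fitted stage change of the 28 genes. In ki D7 libraries it had 11.1, 10.6, 13.5 and 13.2 CPM, against 5.68, 3.75, 5.98 and 6.98 CPM in ki naive libraries. In ko D7 it had 6.85, 12.6, 7.52 and 10.9 CPM, against 9.22, 6.38, 5.34 and 6.54 CPM in ko naive. The wt D7 values were 4.91, 13.5, 2.59, 6.26 and 7.39 CPM, against 5.65, 7.52, 6.12 and 11.03 CPM in wt naive. Every ki D7 library lay above every ki naive one, and the ko and wt ranges overlapped. The ki log2 fold change was 1.12 (SE 0.313, 2.18-fold), with an edgeR adjusted p of 0.0594. DESeq2, limma voom, a fit of the ki groups alone and a fit with no filter on low counts each called it. The difference from wild type in stage change was 1.33 (SE 0.439), with an unadjusted p of 0.00525 and an edgeR adjusted p of 0.999.

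Fdft1, Lss, Cyp51, Tm7sf2, Msmo1, Nsdhl and Hsd17b7 encode enzymes that make squalene, turn it into lanosterol or trim lanosterol. Their averaged log2 fold changes lay between -0.08 and 0.20, and none was called. Cyp51, the lanosterol demethylase, averaged 17.2 ± 3.24 CPM in ko D7, 17.6 ± 2.92 in ki D7 and 16.2 ± 4.59 in wt D7 (SD, n = 4, 4 and 5), against 13.3 ± 0.543, 15.6 ± 3.61 and 15.3 ± 1.43 CPM in ko, ki and wt naive libraries (SD, n = 4 each). Cyp51 overlaps Akap9 on the opposite strand (196973 counts in all), Tm7sf2 overlaps Vps51 on the same strand (11671 counts) and Fdft1 overlaps Ctsb on the opposite strand (28657 counts), so their levels may hold reads of these neighbours. Ebp, the sterol isomerase, had an averaged 95% interval of -0.17 to 0.17 around a value near 0.

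No enzyme at the end of the path was called either. Sc5d, the lathosterol desaturase, had 13.4, 20.2, 16.0 and 14.5 CPM in ko D7, against 15.6, 13.5, 10.1 and 13.8 CPM in ko naive. The ki D7 values were 18.4, 14.0, 15.7 and 13.7 CPM, against 19.8, 16.8, 15.7 and 18.4 CPM in ki naive. Among wt D7 libraries the levels were 12.1, 16.0, 14.7, 16.3 and 14.6 CPM, against 20.9, 17.6, 14.6 and 17.5 CPM in wt naive. The groups overlapped in each genotype. In naive cells Sc5d was lower in ko than in wt by a log2 fold change of -0.40 (SE 0.149), with an edgeR adjusted p of 0.527.

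Dhcr7, the sterol reductase of the final step, had 14.6, 14.7, 22.5 and 15.5 CPM in ko D7, against 14.4, 13.4, 11.2 and 13.1 CPM in ko naive. Among ki D7 libraries the levels were 12.7, 14.0, 18.5 and 15.8 CPM, against 14.9, 12.1, 12.6 and 16.1 CPM in ki naive. For wt cells the D7 levels were 11.4, 10.9, 15.9, 15.2 and 15.4 CPM, against 12.7, 15.7, 14.1 and 15.8 CPM in wt naive. The ko D7 libraries lay just above the ko naive ones, with replicate 3 far above the rest, and the other groups overlapped. The ko log2 fold change was 0.38 (SE 0.153, edgeR adjusted p = 0.283), and without ko D7 replicate 3 it was 0.20 (edgeR adjusted p = 0.695).

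Promoters of the list were searched for words linked to SREBP, and those of Hmgcs1 and Srebf2 are printed because they carry, or lack, the sterol word searched. Both are RefSeq promoters of GRCm38.p6, 250 bases before to 50 after the start, plus strand. Capitals mark a match to the sterol regulatory element TCACNCCAC or to the CCAAT box, read on either strand.
Hmgcs1, chr13:119690101-119690400: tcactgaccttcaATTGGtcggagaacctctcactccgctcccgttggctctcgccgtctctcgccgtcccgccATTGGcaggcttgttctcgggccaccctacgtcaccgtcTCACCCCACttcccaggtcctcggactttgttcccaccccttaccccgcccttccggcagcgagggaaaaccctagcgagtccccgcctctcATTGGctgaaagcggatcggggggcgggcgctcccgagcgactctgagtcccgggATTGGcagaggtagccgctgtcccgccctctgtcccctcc
Srebf2, chr15:82147019-82147318: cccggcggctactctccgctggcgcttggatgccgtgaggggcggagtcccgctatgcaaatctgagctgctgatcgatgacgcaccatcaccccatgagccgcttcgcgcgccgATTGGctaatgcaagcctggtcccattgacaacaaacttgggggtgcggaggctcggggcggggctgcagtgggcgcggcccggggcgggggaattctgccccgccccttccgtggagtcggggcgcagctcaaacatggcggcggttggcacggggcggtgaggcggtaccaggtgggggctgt

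Of the 28 genes, 23 had 1 or more promoters in the table, 31 in all. The word TCACNCCAC stood in 1 of these 31, that of Hmgcs1, against 1.24% of 32851 mouse promoters. CCAAT stood in 20 of the 31, against 37.4% of all, and the GC box GGGCGG, the Sp1-type word, in 25 of the 31, against 35.7% of all; both were searched on both strands, and the GC box is not capitalised above. The LXR repeat, AGGTCA on both sides of any 4 bases, stood in none of the 31 and in 0.0152% of all. A word that is missing here says only that its letters are not in this window. The Srebf2 promoter printed above holds tcaccccat, which differs from the sterol word only in its last base and so was not counted.

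Levels per exon length set the list's order within a library. In wt naive cells the mean CPM per kb of exon was highest for Mylip, at 29.3 ± 2.73, followed by Srebf2 at 20.4 ± 0.935, Nr1h2 at 16.6 ± 1.53 and Abcg1 at 15.9 ± 0.345 (SD, n = 4). Nr1h2 and Abcg1 did not differ beyond their spread, and the other neighbours among these 4 lay further apart than their SDs. Srebf1 at 9.63 ± 0.342 and Abca1 at 7.48 ± 1.07 came next. Control and transport genes thus filled the top of the order, down to Scap at 6.85 ± 0.291 CPM per kb. The enzymes ran from Ebp at 5.23 ± 0.216 down to Hsd17b7 at 0.721 ± 0.200 and Fdps at 0.504 ± 0.0835 CPM per kb. Insig1 at 3.83 ± 0.479, Insig2 at 2.96 ± 0.450 and Stard4 at 2.63 ± 0.393 CPM per kb lay among the enzymes. Exon length covers all annotated exons of a gene, which can exceed the length of any single transcript.

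**Figure D4:**
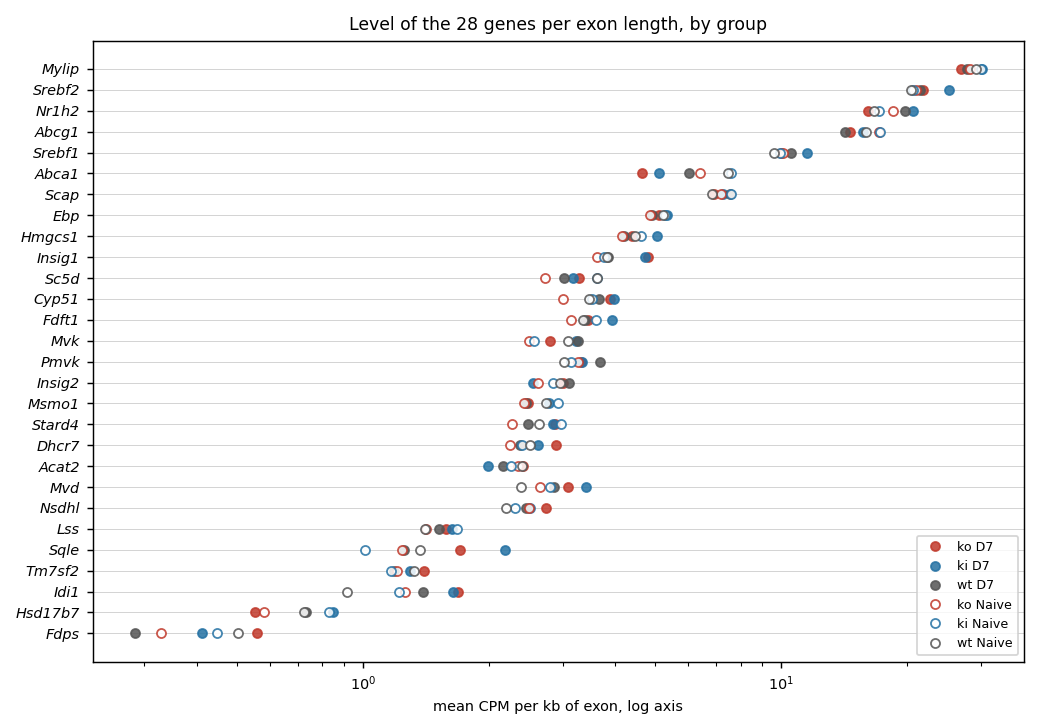
Mean level of the 28 genes by group in CPM per kb of exon (log axis), ordered by the level in wt naive cells; filled points are D7 groups and open points naive groups. The groups of a gene lie close together compared with the distance between the top, Mylip at 29.3, and the bottom, Fdps at 0.504 in wt naive cells.

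None of the 28 genes was called in ko against wt or in ki against wt. Knock-out and knock-in cells were not tested against each other. In naive cells 0 of 28 were called in ko against wt, where 0.0204% of all genes were, and 0 of 28 in ki against wt, where 0.0136% were. At D7 0 of 28 were called in ko against wt, where 0.0476% were, and 0 of 28 in ki against wt, where 0% were. For the difference in stage change, 0 of 28 were called in ko against wt and in ki against wt, where 0% of all genes were called in each. At an unadjusted p under 0.05 in edgeR, 1 of the 28 passed in ko against wt naive, where 7.55% of all genes did, and 3 in ko against wt at D7, where 9.45% did. For ki against wt the counts were 0 in naive cells, where 2.26% of all genes passed, and 3 at D7, where 4.65% passed. In the difference in stage change 4 passed for ko, against 7.79% of all genes, and 2 for ki, against 3.80%. These counts are small and were not tested against those shares.

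The 95% interval lay within 1.5-fold in either direction for 17 of the 28 genes in ko against wt naive and 17 at D7, and for 20 in ki against wt naive and 18 at D7. It did so for 23 in the averaged stage comparison, and for only 8 and 11 in the differences in stage change of ko and ki. Among the genotype values, Nr1h2 at D7 was lower in ko than in wt by a log2 fold change of -0.29 (SE 0.098, edgeR adjusted p = 0.28). At the same stage Abca1 had a log2 fold change of -0.38 in ko against wt (SE 0.162, edgeR adjusted p = 0.441), and of -0.24 without wt D7 replicate 4 (edgeR adjusted p = 0.605). Srebf2 at D7 was higher in ki than in wt by 0.23 (SE 0.064), with every ki D7 library above every wt D7 library and an edgeR adjusted p of 0.818. Sqle at D7 was higher in ki than in wt by 0.87 (SE 0.294, edgeR adjusted p = 0.999). With no filter on low counts, the Abca1 value and both Sqle differences between ki and wt passed the test (edgeR adjusted p = 0.00336, 0.00541 and 0.00482).

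Covariation among libraries of the same group was weak over the list, and the pair with the highest r and the pair of exporters are given as examples. After group means were removed from log2(CPM + 0.5), Hmgcs1 and Cyp51 had a Pearson r of 0.76 and a Spearman rho of 0.72 over 25 libraries (within-group permutation p = 0.00041 and 0.00076; adjusted over 378 pairs, 0.0888 and 0.144). Without the 2 libraries farthest from the median of Hmgcs1 r was 0.69, and it was 0.94 over the 13 D7 and 0.23 over the 12 naive libraries, a difference that was not tested. Abca1 and Abcg1 had an r of 0.61 and a rho of 0.67 (permutation p = 0.00099 and 0.00164; adjusted 0.111 and 0.15), with an r of 0.54 without the 2 farthest, 0.67 at D7 and 0.58 in naive cells. No pair of the 378 passed an adjusted p of 0.05. Over the 153 enzyme pairs the median r was 0.16 and 109 were positive, against a median of 0.08 over all 378. All of these values share library and depth.

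**Figure D5:**
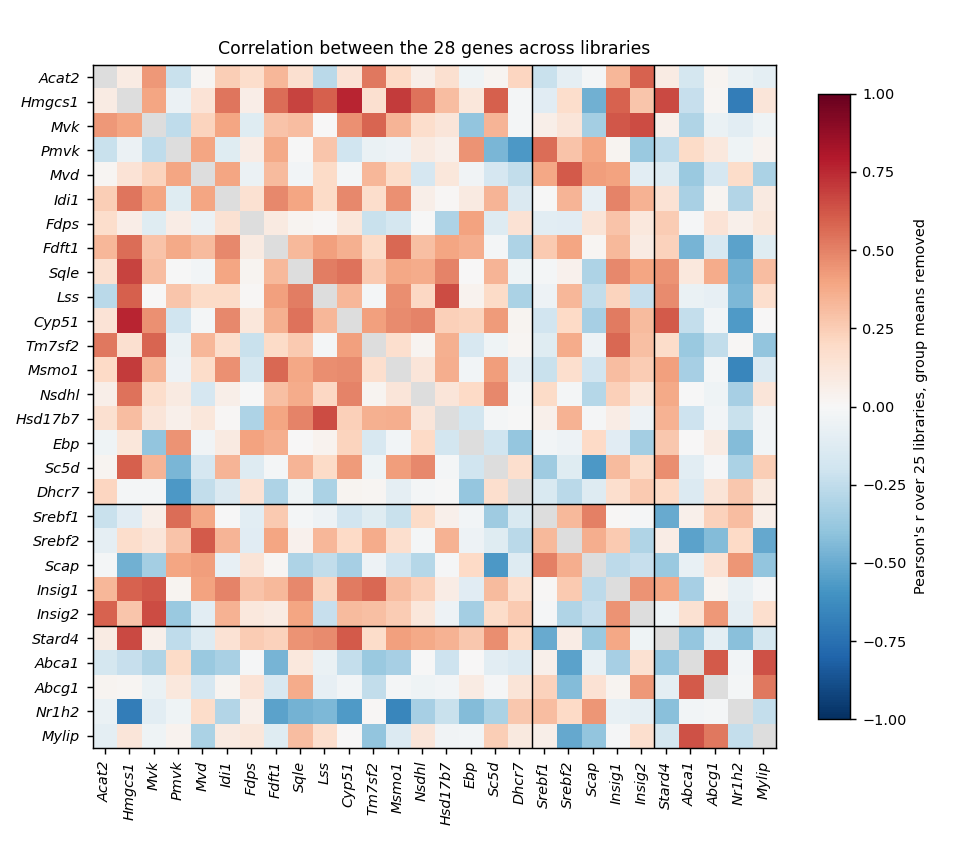
Pearson's r between each pair of the 28 genes over 25 libraries after group means were removed (colour, -1 to 1), with lines between the enzymes, the control genes and the transport and LXR genes. Hmgcs1 is positive with Cyp51 at 0.76 and Abca1 with Abcg1 at 0.61, and the median over all pairs is near 0.

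Some other lipid genes were called in the averaged stage comparison, where 6.16% of all genes were called higher and 5.06% lower. Most of their changes were small, and the counts per list were not tested against those shares. These genes were counted over lists of known roles that were drawn up with earlier results of these data known, with sizes on the log2 scale. Of 10 genes of SREBP cleavage and turnover, Rnf145, a ubiquitin ligase of the pathway, fell by 0.13 (edgeR adjusted p = 0.0306) and none rose. Of 14 fatty acid targets of SREBP, 2 rose and none fell: Elovl6, a fatty acid elongase, by 0.57 (edgeR adjusted p = 0.000395), and Fasn, fatty acid synthase, by 0.14 (edgeR adjusted p = 0.0407). Elovl6 averaged 21.3, 22.6 and 21.6 CPM in ko, ki and wt D7 libraries, against 13.9, 14.7 and 15.1 CPM in ko, ki and wt naive libraries.

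Of 9 tested LXR, oxysterol and efflux genes, Gpr183, the receptor for a dihydroxylated oxysterol that guides T cell position, rose by 0.22 (edgeR adjusted p = 0.0305). Of 16 genes of sterol storage and movement, 2 rose and none fell: Npc2, which moves cholesterol out of lysosomes, by 0.23 (edgeR adjusted p = 0.00216), and Scarb1, an HDL receptor, by 0.35 (edgeR adjusted p = 0.0367). Of 11 genes of growth control upstream of SREBP, 3 rose and none fell. Slc7a5, the large neutral amino acid transporter, rose by 0.69 (edgeR adjusted p = 2.88e-07), its partner chain Slc3a2 by 0.34 (edgeR adjusted p = 1.88e-05) and Myc by 0.17 (edgeR adjusted p = 0.0429). Slc7a5 was called in each genotype alone as well, with log2 fold changes of 0.64 in ko, 0.77 in ki and 0.66 in wt. The calls of Fasn, Myc, Scarb1, Rnf145 and Gpr183 were each lost under 8 to 16 of the 32 alternatives.

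Other markers moved with stage beside these genes, in the averaged comparison where 6.16% of all genes were called higher and 5.06% lower. Summed proliferation genes (Mki67, Top2a and 6 others) averaged 253 ± 151 CPM in ko D7, 241 ± 129 in ki D7 and 194 ± 58.4 in wt D7 (SD, n = 4, 4 and 5), against 135 ± 22.7, 126 ± 39.1 and 126 ± 20.6 CPM in ko, ki and wt naive libraries (SD, n = 4 each), with 6 of 8 called higher in the average. Summed early response genes (Fos, Jun and 6 others) averaged 507 ± 103, 690.3 ± 121 and 651 ± 150 CPM in ko, ki and wt D7 libraries (SD, n = 4, 4 and 5), against 219.5 ± 6.94, 310 ± 52.5 and 185 ± 14.7 CPM in ko, ki and wt naive libraries (SD, n = 4 each), with 6 of 8 called higher. Early response genes also moved with genotype in naive cells, the baseline of the Srebf2 and Sqle values in ki. Jun was higher in ki naive than in wt naive cells by a log2 fold change of 1.90 (means 106 and 27.9 CPM, edgeR adjusted p = 0.00913) and Junb by 0.68 (48.6 and 30.2 CPM, edgeR adjusted p = 0.0345). These were the 2 genes of all 14703 called in that comparison. There 5 of the 8 early response genes had an unadjusted edgeR p under 0.05, where 2.26% of all genes did. Summed CD8 and NK markers averaged 16.2, 13.7 and 12.6 CPM at D7, against 24.4, 18.1 and 18.4 CPM in naive cells, in ko, ki and wt, with 2 of 5 tested called lower. B cell markers ranged from 167 to 183 CPM in group means and myeloid markers from 6.11 to 13.8 CPM, with none called. No marker of these lists was at 0 in every library of a group except Hba-a1, of red cells, in ko D7. Their part in the results for Abca1, Abcg1, Srebf2 and Sqle was not tested.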

How the data were processed

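RNA of sorted CD4 T cells was sequenced in 25 libraries; per the labels' protocols, RNA came from miRNeasy kits and libraries from a stranded total RNA kit (SMARTer Pico), read in pairs on a NovaSeq instrument. The deposited table holds raw gene counts per Ensembl ID, as the authors made them, and per the submitters' processing notes the build was mm10 and DESeq2 was used. The aligner, the counting tool, its strand setting and the annotation are not given in the sources used here.

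All 25 columns were matched to samples by title. Symbols, positions and exon lengths came from GENCODE M21 on GRCm38 (45143 of 46078 IDs matched). Near-identical genes had at least 95% identity over 300 bases or more in blastn 2.17.0. Genes passed filterByExpr (minimum count 10, minimum total 15), leaving 14703. They were fitted with TMM scaling and the edgeR 4.0.16 quasi-likelihood model, 1 mean per group, over all libraries. The 10 comparisons were two-sided, with Benjamini-Hochberg adjustment over all genes at 0.05; intervals are 95%. CPM levels are mean ± SD over libraries. Reads carry no molecular identifiers here, so precision covers counting error and library spread only. Correlations used 100000 permutations within groups.

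The 28 genes and the other lists were chosen with earlier results of these data known. One list, of other synthesis steps and uptake, is not reported here. Per-library values are given for called genes, for Srebf1, Srebf2, Insig1, Insig2, Abca1 and Abcg1, and for those of smallest unadjusted p until there were 12. The procedure was tested on simulated data for D7 against naive in wt. It called 42.4% of the 1.5-fold and 61.2% of the 2-fold changes put in, and 2.86% of its calls were false. A gene that was not called may thus still have changed. Alternatives were RLE size factors, DESeq2 1.42.0, limma 3.58.1 voom with quality weights, no low-count filter, only the groups compared, leaving out genes of mitochondria, rRNA and haemoglobin, a covariate for library number, and each library left out. A block on every 4 neighbouring library numbers was added after the data were seen. R 4.3.3, Python 3.11.15, pandas 2.3.3 and matplotlib 3.10.9 were used.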

Additional observations from a re-analysis of the deposited data

Results flagged for a closer look

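In 9 of 168 gene and group combinations 1 library stood apart from the rest of its group, close to the 1 in 20 that chance flags. For Mvk a wt D7 library had 11.4 CPM, with the next at 8.64 CPM. For Tm7sf2 a wt D7 library had 6.92 CPM, with the next at 5.11 CPM. For Dhcr7, ko D7 replicate 3 had 22.5 CPM, with the next at 15.5 CPM, and this is the library with the lowest weight. For Stard4 a ki D7 library had 10.6 CPM, with the next at 17.1 CPM. For Nsdhl a ko naive library had 9.62 CPM, with the next at 6.65 CPM. For Mvd a ki naive library had 7.27 CPM, with the next at 4.69 CPM. For Fdps a ki naive library had 2.42 CPM, with the next at 1.78 CPM. For Lss a wt naive library had 9.94 CPM, with the next at 16.7 CPM. For Mylip a wt naive library had 108 CPM, with the next at 92.1 CPM. None of these genes was called in any comparison.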

How the results depend on the processing

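Counts are of the 28 sterol genes called. For D7 against naive in ki, 1 was called; 2 were with DESeq2 and with only the groups compared, 3 with voom and with no low-count filter, 0 with the block on library numbers, and 0 to 1 over the fits that left out each library. With no low-count filter 1 was called, against 0, for D7 against naive in wt and in ko, for ko and for ki against wt at D7, and for the ki difference in stage change; the cause was not tested. For D7 against naive averaged over the genotypes, 3 were called, and 3 to 5 over the fits that left out each library, with 5 without wt D7 replicate 3. The other 182 counts by setting stayed within 1.5 times. Abca1 and Abcg1 passed the averaged test under all 32 alternatives (highest edgeR adjusted p 0.00694 and 0.0151), and Srebf2 under 30. Of values of single genes, 980 stayed on their side of the threshold, 18 gained and 105 lost it, and none changed sign. The largest shift of the median log2 fold change of all genes was 0.029. No paired fit was made: the titles give no replicate number shared between groups and do not say that neighbouring library numbers mark a pair. Fdps and Hsd17b7, the lowest genes, had the widest intervals. Whether depth or spread among libraries set those widths was not tested.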
